A study of Chlorella sorokiniana with 6 samples.

Results

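The tetrapyrrole pathway of the green microalga *Chlorella sorokiniana* was described from the transcripts that MapMan BIN 19, tetrapyrrole synthesis, and its child BINs hold in the deposited table of read counts. A MapMan BIN is a functional category, given here to each predicted transcript by the Mercator annotation tool, and the name of a child BIN is the step of the pathway. 52 of 18310 transcripts were members, spread over 22 BIN names, and the rule uses no measured value. RNA was sequenced from 3 cultures grown under normal conditions (10 µmol photons of light, 0% glucose) and 3 grown under mixotrophic conditions (100 µmol photons, 2% glucose), all for 7 days in Bold's Basal Medium. The light and the glucose were raised together, so their parts in any difference cannot be told apart. The labels give each library a strain name of its own with a running number, whereas the methods describe a single strain. The comparison asked how transcripts of each step differed in mixotrophic against normal cultures.

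Tetrapyrroles are ring-shaped pigments and cofactors, among them chlorophyll and heme. In algae and plants the pathway starts in the plastid from glutamate bound to its tRNA, which is reduced and rearranged to 5-aminolevulinic acid (ALA), and ALA is built up in a common trunk to protoporphyrin IX. There the pathway divides. Magnesium chelatase inserts magnesium and opens the branch to chlorophyll, whereas ferrochelatase inserts iron and gives heme, and free intermediates of the chlorophyll branch are known to be phototoxic.

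Libraries held between 2535461 and 4444858 counts. A first fit took replicates 2 and 3 of each condition (4 libraries), as the study's supplementary expression table does, and a second fit took all 6. Normal 1 stood apart from normal 2 and 3, and the typical variation between replicates, as edgeR's common coefficient of variation, was 4.64% over the 4 libraries and 35.5% over the 6. Of the 43 members tested over 6 libraries, 4 were at least 2-fold higher in normal 1 than the mean of normal 2 and 3 (11.0% of all transcripts tested) and 3 were at least 2-fold lower (16.07%). Replicate 1 of both conditions was also at or near 0 for g6234 and g7527, which had counts in all other libraries, so each result is given over 4 and over 6 libraries. Both replicate 1 libraries deviated from their group in a like way, and where a fit over 6 libraries with the replicate number as a block changed a call, its adjusted p is given as well. According to the methods, a pre-culture was split into a normal and a mixotrophic flask and the experiment was repeated independently, but which library numbers came from the same split is not given in the sources used here.

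Levels are given as CPM, the read count scaled to the library total with TMM factors, and are compared only within a transcript because they were not divided by length. They are shares of the RNA sequenced, so fewer cells with a transcript and less of it per cell cannot be told apart. Fold changes are log2 values of mixotrophic over normal with their standard error. A transcript was called higher or lower at an adjusted p under 0.05 in edgeR's quasi-likelihood test, adjusted over all transcripts tested.

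Most steps from ALA to chlorophyll had a transcript that was upregulated in mixotrophic cultures. Over the 4 libraries, 24 of the 43 tested members were higher (55.8%, against 28.6% of all 12389 transcripts tested), 5 were lower (11.6%, against 29%) and 14 were not called. Over the 6 libraries, 18 were higher (41.9%, against 13.3% of 12318) and 2 were lower (4.65%, against 15.2%). All 18 and both lower ones were among those called over 4 libraries (13.2% and 15.3% of the 12255 transcripts tested in both fits). In none of these 20 did the 3 mixotrophic and 3 normal values overlap, which is no separate evidence because the calls rest on the same values. In all, 19 members had every mixotrophic library above every normal one (24.4% of all transcripts) and 4 had every one below (24.2%). With the replicate block over 6 libraries 14 members were higher (9.97% of all) and 1 was lower (10.5%), and the calls shared by all 3 fits were 14 higher (9.56%) and 1 lower (10.4%). Of those higher over 4 libraries, 10 had a log2 fold change of 1 or more (11.7% of all). The counts depended on the libraries of replicate 1. A fit over 5 libraries without normal 1 called 24 members higher and 6 lower (3476 and 3527 among all transcripts). One without mixotrophic 1 called 9 members higher and 0 lower (666 and 730 among all transcripts), with 18 and 2 members at an unadjusted p under 0.05 in edgeR.

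The median log2 fold change of the tested members was 0.48 over the 4 libraries, beside -0.02 for all transcripts, and 0.25 over the 6, beside -0.04. Reads of all members made up 0.640%, 0.548% and 0.545% of the counts in normal 1, 2 and 3 and 0.835%, 0.822% and 0.838% in mixotrophic 1, 2 and 3. The 95% Wilson intervals reached up to 0.648% in the normal and down to 0.813% in the mixotrophic libraries, so the intervals did not overlap between conditions. The intervals describe counting error with reads taken as independent, which reads of PCR-amplified libraries are not. They leave out the variation between cultures.

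**Figure D1:**
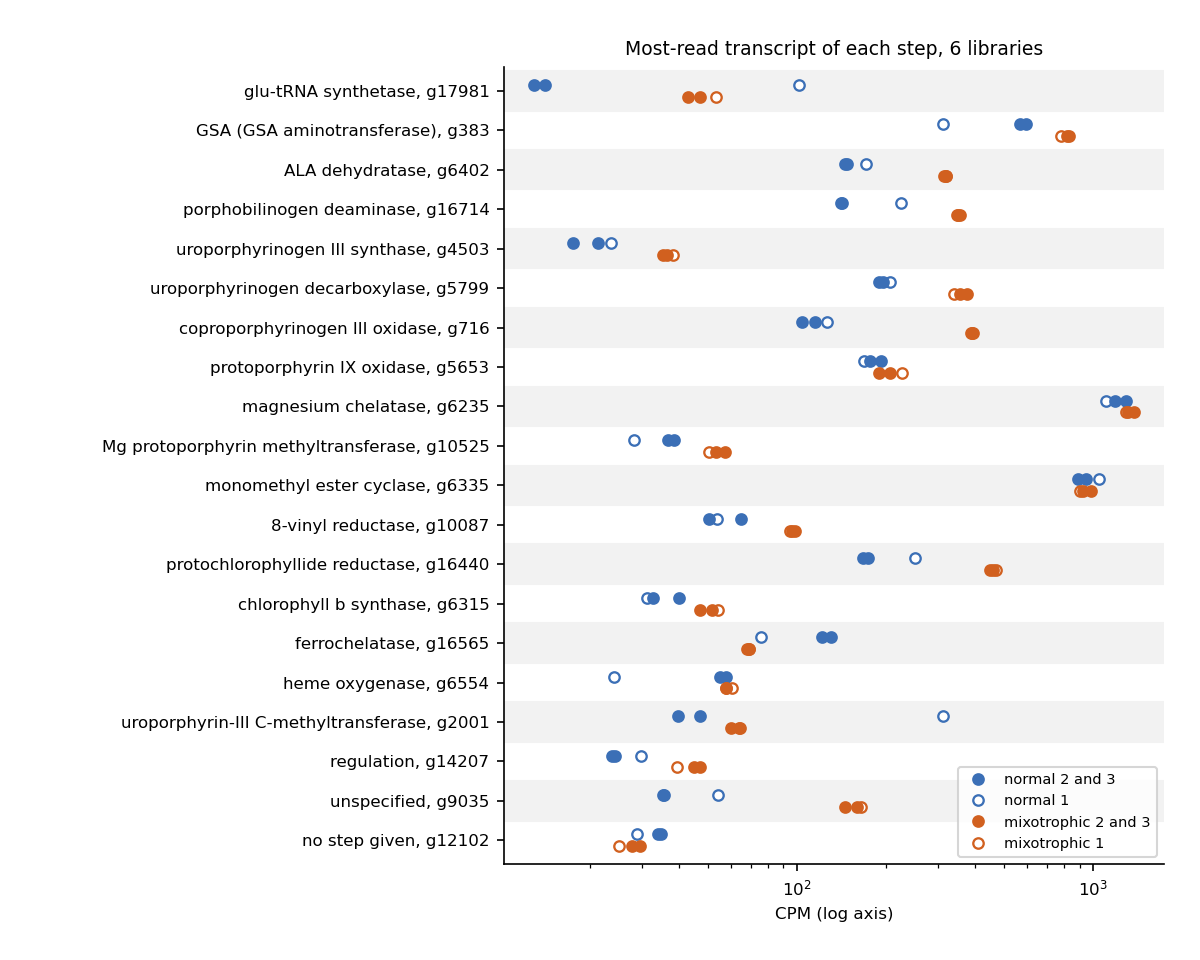
The level of the most-read transcript of each of the 20 steps with a counted member, in CPM on a log axis, for every library. Blue points are normal and orange points mixotrophic libraries, open points are replicate 1, and steps run in pathway order from the top. The 3 mixotrophic points lie to the right of all normal ones at ALA dehydratase, porphobilinogen deaminase, coproporphyrinogen III oxidase and protochlorophyllide reductase, and among the normal ones at the monomethyl ester cyclase.

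The step named glu-tRNA synthetase held no transcript of that enzyme. All 6 members were annotated as subunits of the amidotransferase that converts glutamate to glutamine on a mischarged tRNA, a different use of the same kind of substrate. The most-read, g17981, had 102, 12.9 and 14.1 CPM in normal 1, 2 and 3 and 53.1, 47.0 and 43.0 CPM in mixotrophic 1, 2 and 3. Normal 1 was the highest of the 6 libraries, and only normal 2 and 3 lay below the mixotrophic range. This was a log2 fold change of 1.71 ± 0.18 over 4 libraries (edgeR adjusted p = 2.59e-09) and 0.14 ± 0.81 over 6 (adjusted p = 0.942). Its pair g17980, from the same assembled component, had 1.72 ± 0.19 over 4 libraries (edgeR adjusted p = 3.94e-09) and -0.01 ± 0.81 over 6 (adjusted p = 0.998). The other 4 were not called in either fit, with log2 fold changes over 4 libraries between -0.23 and 0.22. Summed with the other transcripts of their component, g4173 and g4175 had 0.311 over 4 libraries (edgeR adjusted p = 0.000434). Summed likewise, g12591 and g12593 had -0.158 (edgeR adjusted p = 0.304). Glu-tRNA reductase, the first committed step, had 1 member, g1666, with no count in any library.

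The next enzyme, glutamate-1-semialdehyde aminotransferase (the BIN GSA), makes ALA. Its only transcript, g383, had 310.4, 592 and 569 CPM in normal 1, 2 and 3 and 779.9, 815 and 828 CPM in mixotrophic 1, 2 and 3. All mixotrophic libraries lay above all normal ones, with normal 1 well below the other normal libraries. For g383 the log2 fold change was 0.48 ± 0.053 over 4 libraries (edgeR adjusted p = 5.46e-09) and 0.72 ± 0.25 over 6 (adjusted p = 0.0779), so it was called over 4 libraries only.

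ALA dehydratase joins ALA in pairs to porphobilinogen. Its transcript g6402 had 172, 146 and 148 CPM in normal 1, 2 and 3 and 318, 318 and 314 CPM in mixotrophic 1, 2 and 3. The mixotrophic libraries were nearly equal and lay above every normal library. In log2 units the difference was 1.08 ± 0.071 over 4 libraries (edgeR adjusted p = 9.14e-14) and 1.03 ± 0.10 over 6 (adjusted p = 0.00221). Porphobilinogen deaminase links porphobilinogen units into a linear tetrapyrrole. Its transcript g16714 had 225, 142 and 141 CPM in normal 1, 2 and 3 and 348, 349.6 and 355 CPM in mixotrophic 1, 2 and 3. Normal 1 was the highest normal library but did not reach the mixotrophic range. The change was 1.29 ± 0.070 over 4 libraries (edgeR adjusted p = 1.15e-15) and 1.05 ± 0.20 over 6 (adjusted p = 0.0148).

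Uroporphyrinogen III synthase closes the ring. Its transcript g4503 had 23.5, 17.5 and 21.4 CPM in normal 1, 2 and 3 and 38.2, 36.4 and 35.4 CPM in mixotrophic 1, 2 and 3. The conditions did not overlap. The fitted log2 fold change was 0.85 ± 0.18 over 4 libraries (edgeR adjusted p = 0.000129) and 0.81 ± 0.15 over 6 (adjusted p = 0.0118), and that of its pair g4504 from the same component was 0.73 ± 0.20 over 4 libraries (edgeR adjusted p = 0.00255) and 0.67 ± 0.18 over 6 (adjusted p = 0.0391), with an adjusted p of 0.0761 in the blocked fit. Uroporphyrinogen decarboxylase then trims the side chains of the ring. Its most-read transcript g5799 had 206, 189 and 195 CPM in normal 1, 2 and 3 and 339, 355 and 374 CPM in mixotrophic 1, 2 and 3. The mixotrophic libraries again lay above all normal ones. On the log2 scale the difference was 0.90 ± 0.066 over 4 libraries (edgeR adjusted p = 1.15e-12) and 0.86 ± 0.094 over 6 (adjusted p = 0.00271), and that of a second transcript, g11619, was 0.85 ± 0.10 over 4 libraries (edgeR adjusted p = 2.56e-08) and 0.81 ± 0.098 over 6 (adjusted p = 0.00344). Both were annotated with Arabidopsis HEME2 as the nearest relative, and both kept the call in the blocked fit. Summed with the other transcripts of its component, g11619 had 0.185 over 4 libraries (edgeR adjusted p = 0.00855). The third, g6158, related to HEME1, had 0.48 ± 0.083 over 4 libraries (edgeR adjusted p = 1.20e-05) and 0.54 ± 0.11 over 6 (adjusted p = 0.0158) and was not called with the block (adjusted p = 0.0602).

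The largest log2 fold changes of the trunk in both fits were at coproporphyrinogen III oxidase, which turns coproporphyrinogen into protoporphyrinogen. The transcript g716 had 126, 104 and 115 CPM in normal 1, 2 and 3 and 394, 387 and 391 CPM in mixotrophic 1, 2 and 3. The mixotrophic libraries agreed closely and stood more than 3-fold above normal 2 and 3. This was a log2 fold change of 1.80 ± 0.074 over 4 libraries (edgeR adjusted p = 1.67e-18) and 1.76 ± 0.11 over 6 (adjusted p = 0.000627). The other transcript of that component, g717, had 1.82 ± 0.073 over 4 libraries (edgeR adjusted p = 9.79e-19) and 1.90 ± 0.10 over 6 (adjusted p = 0.000526). The fourth transcript of the BIN went the other way: g4067, a radical SAM protein of the kind that in bacteria catalyses the step without oxygen, had 21.6, 29.7 and 26.9 CPM in normal 1, 2 and 3 and 16.6, 17.5 and 14.6 CPM in mixotrophic 1, 2 and 3. Every mixotrophic library lay below every normal one. The log2 fold change was -0.83 ± 0.20 over 4 libraries (edgeR adjusted p = 0.000649) and -0.68 ± 0.18 over 6 (adjusted p = 0.035), and it was not called with the block (adjusted p = 0.0778). Protoporphyrin IX oxidase, the last enzyme of the trunk, did not follow the steps before it. Its transcript g5653 had 169, 176 and 193 CPM in normal 1, 2 and 3 and 227, 189 and 205 CPM in mixotrophic 1, 2 and 3, and these ranges overlapped. In log2 units the difference was 0.07 ± 0.074 over 4 libraries (edgeR adjusted p = 0.449) and 0.21 ± 0.12 over 6 (adjusted p = 0.229).

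**Figure D2:**
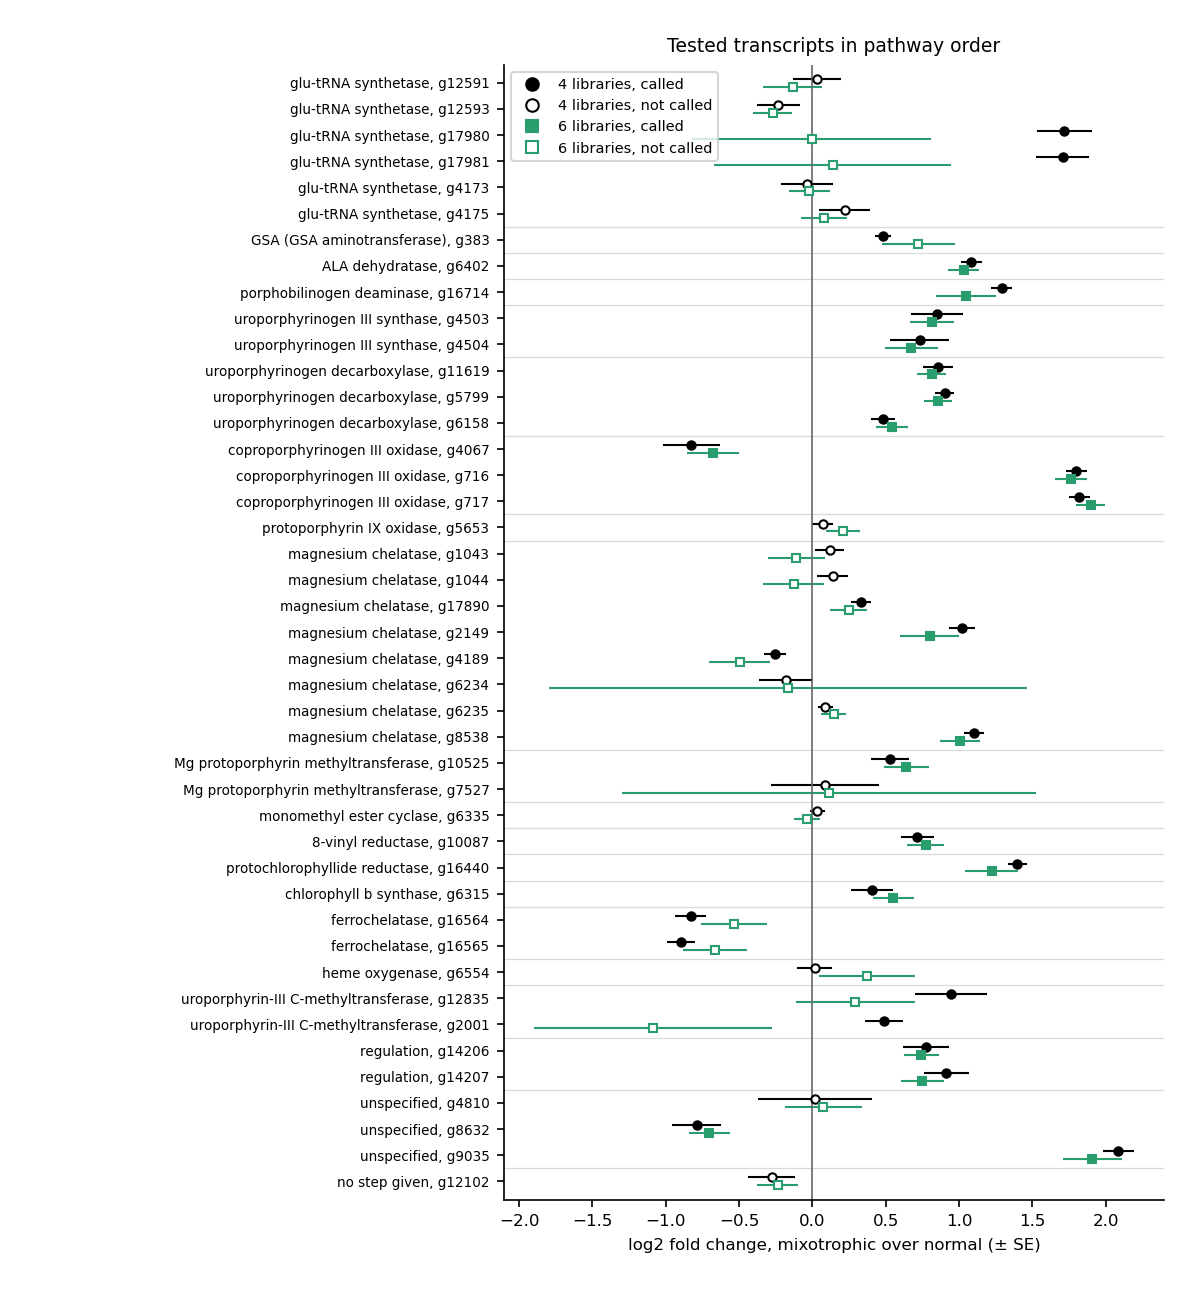
The log2 fold change of mixotrophic over normal with its standard error for the 43 tested members in pathway order. Black circles are the fit over 4 libraries and green squares that over 6, filled where the transcript was called. Most steps from ALA dehydratase to protochlorophyllide reductase lie to the right of 0 in both fits, up to 1.80 and 1.82 at coproporphyrinogen III oxidase over 4 libraries, and both ferrochelatase transcripts lie to the left.

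Magnesium chelatase, the first enzyme of the chlorophyll branch, had 8 members that differed among themselves. It is built of a large catalytic subunit (H) and 2 kinds of smaller subunit (I and D). The most-read member, g6235, related to the H subunit GUN5, had 1107, 1297 and 1189 CPM in normal 1, 2 and 3 and 1292, 1309 and 1375 CPM in mixotrophic 1, 2 and 3. These values overlapped and the log2 fold change was 0.09 ± 0.051 over 4 libraries (edgeR adjusted p = 0.138) and 0.15 ± 0.084 over 6 (adjusted p = 0.251). It was called higher under upper quartile scaling (0.15, adjusted p = 0.0249) and without normal 2 (0.13, adjusted p = 0.0198). In contrast, g8538, whose description is removed in the copy of the table used here, had 219, 162 and 176 CPM in normal 1, 2 and 3 and 381, 371 and 366 CPM in mixotrophic 1, 2 and 3. All mixotrophic libraries lay above all normal ones. The fitted log2 fold change was 1.102 ± 0.069 over 4 libraries (edgeR adjusted p = 3.53e-14) and 1.01 ± 0.14 over 6 (adjusted p = 0.00477). The D subunit transcript g2149 had 146, 87.7 and 104 CPM in normal 1, 2 and 3 and 193, 206 and 189.9 CPM in mixotrophic 1, 2 and 3, again without overlap. On the log2 scale the difference was 1.02 ± 0.089 over 4 libraries (edgeR adjusted p = 5.61e-11) and 0.80 ± 0.20 over 6 (adjusted p = 0.0317).

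Another D subunit transcript of the 4, g17890, was higher over 4 libraries only, with 0.33 ± 0.067 over 4 libraries (edgeR adjusted p = 9.94e-05) and 0.25 ± 0.13 over 6 (adjusted p = 0.194). The remaining pair of D subunit transcripts, g1043 and g1044, was not called in either fit, with 0.12 and 0.14 over 4 libraries and -0.11 and -0.13 over 6. A member annotated with the CobN domain of the H subunit and of bacterial cobalt chelatases, g4189, had 321, 204 and 201 CPM in normal 1, 2 and 3 and 171, 162 and 184 CPM in mixotrophic 1, 2 and 3. Every mixotrophic library lay below every normal one, with normal 1 the highest. This was a log2 fold change of -0.26 ± 0.075 over 4 libraries (edgeR adjusted p = 0.00412) and -0.50 ± 0.21 over 6 (adjusted p = 0.131), so it was called lower over 4 libraries only. A further transcript related to GUN5, g6234, had 0.829, 70.2 and 43.7 CPM in normal 1, 2 and 3 and 0, 36.9 and 64.6 CPM in mixotrophic 1, 2 and 3. It was low in replicate 1 of both conditions and its log2 fold change was -0.18 ± 0.19 over 4 libraries (edgeR adjusted p = 0.433) and -0.17 ± 1.63 over 6 (adjusted p = 0.966). Which of these transcripts the enzyme of this alga uses was not tested.

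Magnesium protoporphyrin IX methyltransferase adds the methyl group that the following ring closure needs. Its transcript g10525 had 28.2, 36.7 and 38.4 CPM in normal 1, 2 and 3 and 50.5, 53.4 and 57.0 CPM in mixotrophic 1, 2 and 3. The conditions did not overlap. The log2 fold change was 0.53 ± 0.13 over 4 libraries (edgeR adjusted p = 0.00108) and 0.64 ± 0.15 over 6 (adjusted p = 0.0277). Summed with the other transcripts of its component, which are not members, it was 0.04 over 4 libraries (adjusted p = 0.498). A second member, g7527, had 0 or 1 count in replicate 1 of both conditions and 12, 20, 20 and 28 in the others, and was not called.

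The cyclase that forms the fifth ring of chlorophyll (magnesium-protoporphyrin IX monomethyl ester cyclase) had 1 transcript, g6335, related to CTH1 of *Chlamydomonas reinhardtii*. It had 1046, 949.5 and 887 CPM in normal 1, 2 and 3 and 901, 922 and 986 CPM in mixotrophic 1, 2 and 3. The mixotrophic values lay inside the normal range, and the log2 fold change was 0.03 ± 0.052 over 4 libraries (edgeR adjusted p = 0.612) and -0.04 ± 0.092 over 6 (adjusted p = 0.833). Reads of g6235 and g6335, neither of them called over 4 or 6 libraries, together made up 34.2%, 38.7% and 36.6% of the counts of all members in normal 1, 2 and 3 and 27.4%, 27.6% and 28.4% in mixotrophic 1, 2 and 3. This is a share of reads and not of molecules.

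The cyclase works with a small partner protein, known as Ycf54 in cyanobacteria and LCAA in tobacco, that MapMan does not place in BIN 19. A transcript related to its Arabidopsis homologue At5g58250, g14713, was among the transcripts around the pathway. It had 122, 90.2 and 86.4 CPM in normal 1, 2 and 3 and 381, 358 and 364 CPM in mixotrophic 1, 2 and 3. Every mixotrophic library was more than 2-fold above every normal one. In log2 units the difference was 2.01 ± 0.076 over 4 libraries (edgeR adjusted p = 2.44e-19) and 1.88 ± 0.16 over 6 (adjusted p = 0.00141).

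Divinyl chlorophyllide a 8-vinyl-reductase reduces a vinyl side chain of the ring. Its transcript g10087 had 53.9, 50.5 and 64.7 CPM in normal 1, 2 and 3 and 95.0, 96.0 and 98.3 CPM in mixotrophic 1, 2 and 3, and the conditions did not overlap. The fitted log2 fold change was 0.72 ± 0.11 over 4 libraries (edgeR adjusted p = 2.97e-06) and 0.77 ± 0.13 over 6 (adjusted p = 0.00846). A second member, g12319, had at most 5 counts in any library and was not tested. Protochlorophyllide reductase, which in its light-dependent form needs a photon for each turnover, had the transcript g16440. Its levels were 251, 173 and 167 CPM in normal 1, 2 and 3 and 470.1, 447 and 461 CPM in mixotrophic 1, 2 and 3. Mixotrophic libraries were all above the highest normal library, normal 1. On the log2 scale the difference was 1.397 ± 0.066 over 4 libraries (edgeR adjusted p = 4.11e-17) and 1.22 ± 0.18 over 6 (adjusted p = 0.00594).

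Chlorophyll synthase, which attaches the phytyl tail, had 1 member, g5679, with no count in any library. Chlorophyll b synthase (chlorophyllide a oxygenase) had the transcript g6315, whose description is also removed. It had 31.2, 32.6 and 40.1 CPM in normal 1, 2 and 3 and 54.0, 51.5 and 46.9 CPM in mixotrophic 1, 2 and 3. The lowest mixotrophic library was above the highest normal one by a small margin. This was a log2 fold change of 0.41 ± 0.14 over 4 libraries (edgeR adjusted p = 0.0162) and 0.55 ± 0.14 over 6 (adjusted p = 0.0339), and the blocked fit did not call it (adjusted p = 0.0936). Nor was it called by DESeq2 over 4 libraries (adjusted p = 0.178) or by edgeR without normal 2 (0.169), without mixotrophic 2 (0.148) or, from the 6 libraries, without mixotrophic 1 (0.157). From GSA to chlorophyll b, 13 of 14 steps had a tested member, and a member was higher in 11 of the 13 over 4 libraries, in 10 over 6 and in 9 over 6 with the block. Protoporphyrin IX oxidase and the cyclase had none in any of the 3 fits. A step was counted if any of its members was higher, and no like share over all transcripts was computed. Magnesium chelatase was counted with 3 of 8 members higher and 1 lower over 4 libraries. Coproporphyrinogen III oxidase was counted with 2 higher and 1 lower.

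At the branch to heme the direction was the opposite over 4 libraries. Ferrochelatase, which competes with magnesium chelatase for protoporphyrin IX, had a pair of transcripts from 1 component. The more-read, g16565, had 75.5, 129.9 and 121 CPM in normal 1, 2 and 3 and 69.1, 68.7 and 68.0 CPM in mixotrophic 1, 2 and 3. All mixotrophic libraries lay below all normal ones, by a small margin for normal 1. On the log2 scale they differed by -0.90 ± 0.096 over 4 libraries (edgeR adjusted p = 3.50e-09) and -0.66 ± 0.22 over 6 (adjusted p = 0.0662) for g16565 and -0.83 ± 0.11 over 4 libraries (edgeR adjusted p = 8.80e-08) and -0.54 ± 0.23 over 6 (adjusted p = 0.131) for g16564. Neither was called over 6 libraries, where normal 1 lay close to the mixotrophic level (65.5 CPM for g16564, against 55.4 to 69.9 CPM in the mixotrophic libraries).

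Summed over their transcripts, ferrochelatase had 141, 238 and 227 CPM in normal 1, 2 and 3 and 139, 124 and 136 CPM in mixotrophic 1, 2 and 3. The 8 magnesium chelatase transcripts had 2313, 2198 and 2086 CPM in the normal and 2490.0, 2525 and 2646 CPM in the mixotrophic libraries. The ratio of the first sum to the second was 0.0609, 0.109 and 0.109 in normal 1, 2 and 3 and 0.0558, 0.0492 and 0.0513 in mixotrophic 1, 2 and 3. The lowest normal ratio, that of normal 1, was close to the mixotrophic ones. This ratio was chosen after its values were seen and was not tested.

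**Figure D3:**
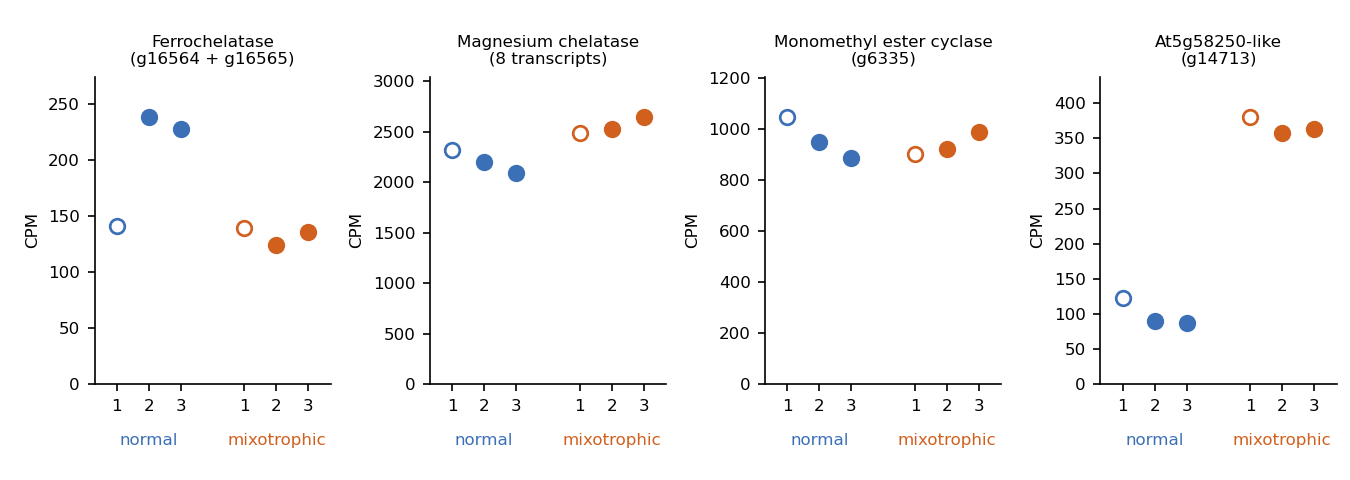
CPM per library of the summed ferrochelatase transcripts, the summed magnesium chelatase transcripts, the cyclase transcript g6335 and the At5g58250-like transcript g14713, each axis starting at 0. Blue points are normal and orange points mixotrophic libraries, and open points are replicate 1. Ferrochelatase in normal 1 (141 CPM) sits near the mixotrophic libraries (124 to 139 CPM), whereas g14713 separates the conditions and g6335 does not.

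Heme oxygenase, which opens heme on the way to bilins, had the transcript g6554. Its levels were 24.0, 57.6 and 54.9 CPM in normal 1, 2 and 3 and 60.4, 57.6 and 57.6 CPM in mixotrophic 1, 2 and 3. Normal 1 stood far below the other 5 libraries. The log2 fold change was 0.02 ± 0.12 over 4 libraries (edgeR adjusted p = 0.921) and 0.37 ± 0.33 over 6 (adjusted p = 0.459). Uroporphyrin-III C-methyltransferase leads from the trunk to siroheme, the cofactor of nitrite and sulfite reductases. Its most-read transcript g2001 had 311, 39.7 and 47.0 CPM in normal 1, 2 and 3 and 63.7, 64.3 and 59.8 CPM in mixotrophic 1, 2 and 3. Normal 1 was 7.17 times the mean of normal 2 and 3 and far above every mixotrophic library. With opposite signs, the log2 fold change was 0.49 ± 0.13 over 4 libraries (edgeR adjusted p = 0.00182) and -1.09 ± 0.81 over 6 (adjusted p = 0.374). The second transcript, g12835, had 0.94 ± 0.24 over 4 libraries (edgeR adjusted p = 0.00145) and 0.29 ± 0.41 over 6 (adjusted p = 0.662).

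**Figure D4:**
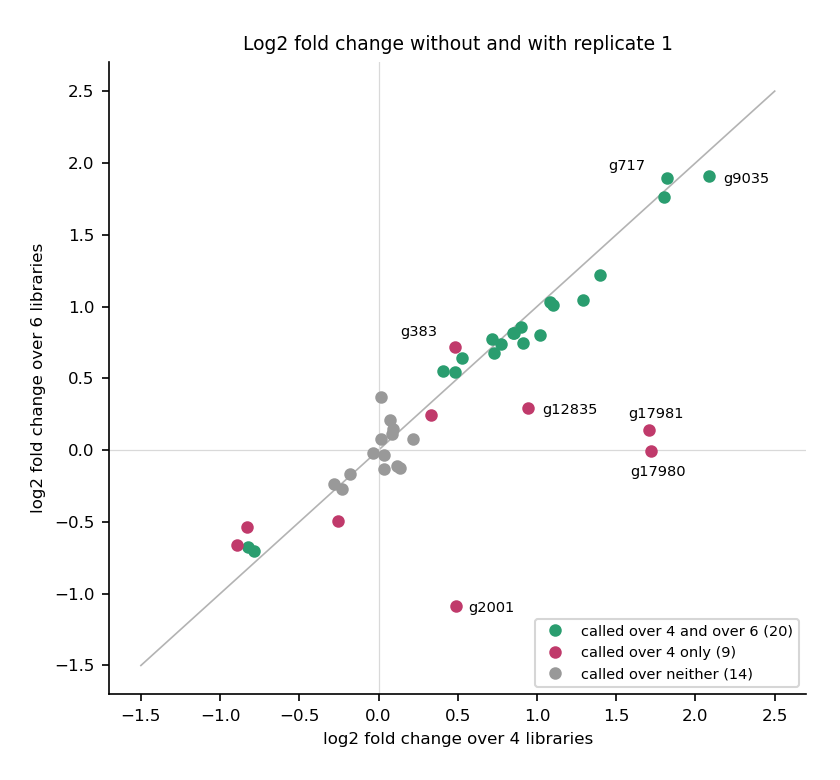
The log2 fold change over 6 libraries against that over 4 for the 43 tested members, with the line of equality in grey. Green points (20) were called in both fits, red points (9) over 4 libraries only and grey points (14) in neither. The transcripts g17980, g17981 and g2001 lie farthest from the line, and in each of them normal 1 was the highest of the 6 libraries.

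The BIN for regulation had 4 members. A pair from 1 component without a description here, g14206 and g14207, was higher. The more-read, g14207, had 29.9, 23.8 and 24.3 CPM in normal 1, 2 and 3 and 39.3, 47.0 and 45.0 CPM in mixotrophic 1, 2 and 3, and the conditions did not overlap. Their log2 fold changes were 0.91 ± 0.15 over 4 libraries (edgeR adjusted p = 8.59e-06) and 0.75 ± 0.15 over 6 (adjusted p = 0.0153) for g14207 and 0.78 ± 0.16 over 4 libraries (edgeR adjusted p = 0.000118) and 0.74 ± 0.12 over 6 (adjusted p = 0.0083) for g14206, and the blocked fit called g14206 but not g14207 (adjusted p = 0.0543). The other pair, g9677 and g9679, was related to FLU, a repressor of ALA synthesis in Arabidopsis, and had no counts.

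Members of the BIN without a step included the largest log2 fold change among the members over 4 libraries. This was g9035, related to COX10, the farnesyltransferase that makes heme o for cytochrome c oxidase in mitochondria. It had 54.2, 35.5 and 35.2 CPM in normal 1, 2 and 3 and 165, 145 and 159.6 CPM in mixotrophic 1, 2 and 3. All mixotrophic libraries were more than 2-fold above all normal ones. In log2 units the difference was 2.09 ± 0.11 over 4 libraries (edgeR adjusted p = 3.55e-16) and 1.91 ± 0.20 over 6 (adjusted p = 0.00247). In the same BIN g8632, a flavodoxin family protein, had 31.8, 35.1 and 38.4 CPM in normal 1, 2 and 3 and 21.2, 19.9 and 23.6 CPM in mixotrophic 1, 2 and 3. Every mixotrophic library lay below every normal one. The fitted log2 fold change was -0.79 ± 0.17 over 4 libraries (edgeR adjusted p = 0.000201) and -0.70 ± 0.14 over 6 (adjusted p = 0.0154), and it was the only member called lower in the blocked fit too. A relative of it, g4810, had 0.02 ± 0.39 over 4 libraries and was not called. The member at the top level of the BIN, g12102, a tetrapyrrole methylase family protein, had 28.7, 34.7 and 33.8 CPM in normal 1, 2 and 3 and 25.0, 27.8 and 29.5 CPM in mixotrophic 1, 2 and 3. These ranges overlapped and it was not called, with -0.28 ± 0.16 over 4 libraries (edgeR adjusted p = 0.135) and -0.24 ± 0.14 over 6 (adjusted p = 0.251).

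Transcripts of 1 component were not independent. Of the 52 members, 26 shared a Trinity component (contigs assembled from overlapping sequence) with another transcript and 20 with another member. In the 8 pairs of members with counts in both, the first transcript took between 42.5 and 58.1% of the pair's reads in every library, so the values of a pair are not independent. 8 members had no count in any library: g1666, g5679, g11617 of uroporphyrinogen decarboxylase, g5839 of coproporphyrinogen III oxidase, the regulators g9677 and g9679, and g4748 and g4811 of the BIN without a step. A count of 0 allows up to 3 counts, which is 0.648 to 1.25 CPM in these libraries, and 7 of the 8 shared a component with another transcript. Whether their reads were assigned to another transcript was not tested. Counts summed per component take in transcripts that are not members. Of the 35 components with a tested member, 19 were higher and 4 lower over 4 libraries (2365 and 2373 among all components). The number of all components tested is not given here, so no share stands beside these counts. Among components whose members were not tested, 1 was higher, that of g4748, and 1 was lower, that of g9677 and g9679, from reads of other transcripts. Among the 35 tested members with at least 600 counts in all, the highest mixotrophic library was within 1.2-fold of the lowest in 31, and the highest normal library in 9.

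Lists of transcripts around the pathway were read from the same fits. Light-harvesting complex proteins, which bind most of the chlorophyll of the cell, held 29 tested members, of which 20 were higher and 1 lower over 4 libraries (28.6% and 29% of all). Over 6 libraries 19 were higher and 1 lower (13.3% and 15.2% of all). With the block 12 and 0 were (9.97% and 10.5% of all), with 20 and 1 at an unadjusted p under 0.05 in edgeR. Many members shared a Trinity component and are not independent, and counts summed per component gave 8 higher and 2 lower over 4 libraries. The numbers of components tested, in the list and in all, are not given here. Several members that were not called were at or near 0 in replicate 1 of both conditions. Of these, g13009 and g13010 had no count there and 88 to 150 counts in the other libraries. Their log2 fold changes over 6 libraries had standard errors of 1.69 and 1.68. The counts of g1168, g10492 and g13765 in replicate 1 were 0 to 3. The median log2 fold change of the list was 0.63 over 4 libraries. The call with the smallest adjusted p was g3104, an antenna protein of photosystem II, with 2021, 1468 and 1465 CPM in normal 1, 2 and 3 and 2854, 3005 and 3140.0 CPM in mixotrophic 1, 2 and 3. Its libraries did not overlap between conditions, and the log2 fold change was 1.04 ± 0.046 over 4 libraries (edgeR adjusted p = 7.96e-18) and 0.86 ± 0.14 over 6 (adjusted p = 0.00902). The next was g4123, related to CP26, with 1.04 ± 0.052 over 4 libraries (edgeR adjusted p = 1.67e-16) and 0.83 ± 0.19 over 6 (adjusted p = 0.0254). The lower one was g3905, a chlorophyll a/b binding family protein, with -0.96 ± 0.22 over 4 libraries (edgeR adjusted p = 0.000369) and -0.71 ± 0.20 over 6 (adjusted p = 0.0448), and it was not called with the block (adjusted p = 0.0919).

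Phytyl chain supply, the non-mevalonate isoprenoid pathway and geranylgeranyl reductase, held 10 tested members. Over 4 libraries 4 were higher and 0 lower (28.6% and 29% of all), and over 6 libraries 2 and 0 (13.3% and 15.2% of all), with the same counts at an unadjusted p under 0.05 in edgeR and 4 and 0 in DESeq2 over 4 libraries. The smallest adjusted p was that of g17151 (IspD), with 6.91, 10.4 and 8.21 CPM in normal 1, 2 and 3 and 27.9, 30.8 and 33.4 CPM in mixotrophic 1, 2 and 3. Its conditions did not overlap, and the log2 fold change was 1.77 ± 0.22 over 4 libraries (edgeR adjusted p = 4.42e-08) and 1.85 ± 0.20 over 6 (adjusted p = 0.00265). For g9697, of the BIN HDS, it was 0.44 ± 0.061 over 4 libraries (edgeR adjusted p = 4.16e-07) and 0.41 ± 0.086 over 6 (adjusted p = 0.0182), and the blocked fit did not call it (adjusted p = 0.0839). Charging of tRNA with glutamate, the substrate of the pathway, rested on 1 tested transcript, g4647. It had 322, 238 and 225 CPM in normal 1, 2 and 3 and 363, 361 and 355 CPM in mixotrophic 1, 2 and 3, and its log2 fold change was 0.61 ± 0.066 over 4 libraries (edgeR adjusted p = 3.70e-09) and 0.46 ± 0.16 over 6 (adjusted p = 0.0762).

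Chlorophyll breakdown held 10 tested members, with 2 higher and 4 lower over 4 libraries (28.6% and 29% of all) and 1 and 3 over 6 (13.3% and 15.2% of all). The higher ones were g11273, related to the chlorophyll b reductase NOL, with 1.16 ± 0.10 over 4 libraries (edgeR adjusted p = 4.93e-11) and 0.96 ± 0.18 over 6 (adjusted p = 0.0138), and g4367, related to pheophorbide a oxygenase, with 0.45 ± 0.18 over 4 libraries (edgeR adjusted p = 0.0386) and 0.11 ± 0.27 over 6 (adjusted p = 0.824). A pair of transcripts of 1 component, related to 7-hydroxymethyl chlorophyll a reductase, the enzyme that returns chlorophyll b breakdown products to chlorophyll a, was lower. The more strongly lowered, g3866, had 60.0, 40.9 and 43.7 CPM in normal 1, 2 and 3 and 24.0, 19.2 and 18.3 CPM in mixotrophic 1, 2 and 3. Every mixotrophic library was below every normal one, and the log2 fold change was -1.20 ± 0.17 over 4 libraries (edgeR adjusted p = 3.95e-07) and -1.23 ± 0.20 over 6 (adjusted p = 0.00871). The lowest log2 fold change of the list was that of g17430, related to the STAY-GREEN family, with -2.36 ± 0.28 over 4 libraries (edgeR adjusted p = 2.74e-08) and -1.72 ± 0.44 over 6 (adjusted p = 0.0329). It had at most 68 counts in a library and was not called with the block (adjusted p = 0.0705). Another transcript of its component, g17431, had more counts and a smaller change over 4 libraries. It had 465, 217 and 213.5 CPM in normal 1, 2 and 3 and 169, 180 and 166 CPM in mixotrophic 1, 2 and 3. Its log2 fold change was -0.335 ± 0.075 over 4 libraries (edgeR adjusted p = 0.000319) and -0.80 ± 0.33 over 6 (adjusted p = 0.121).

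**Figure D5:**
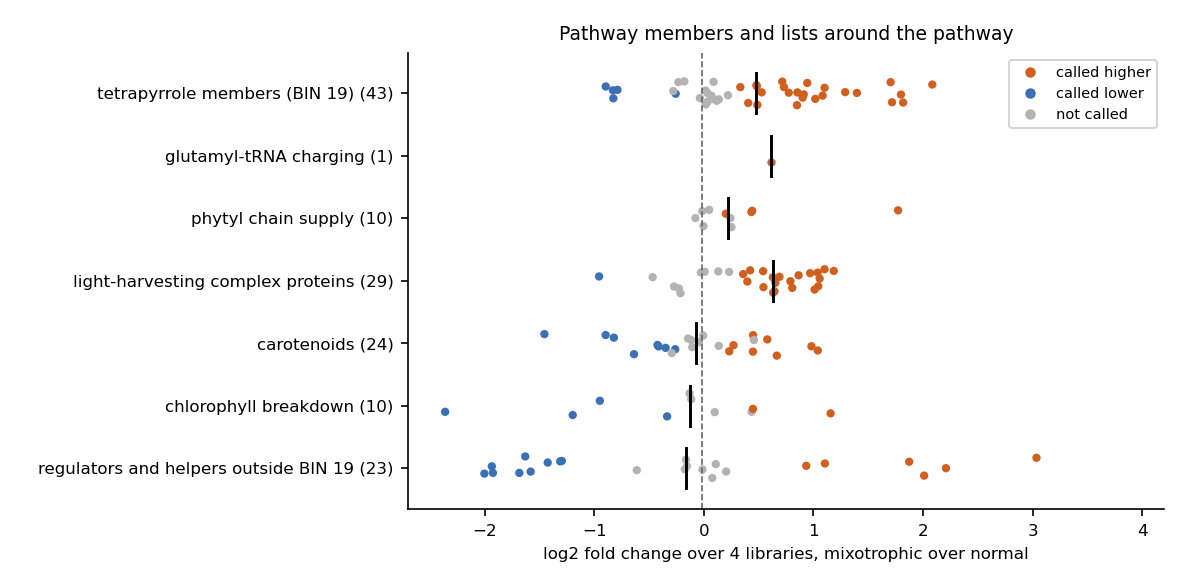
Log2 fold changes over 4 libraries of the tested pathway members and of the lists around the pathway, 1 point per transcript, with the number tested in brackets. Orange points were called higher, blue points lower and grey points were not called. The black bars are the medians (0.48 for the pathway members, 0.63 for light-harvesting complex proteins) and the broken line is the median of all transcripts (-0.02).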

How the data were processed

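RNA was extracted from the pellet of each culture with TRIzol, and strand-marked libraries were sequenced with paired-end reads on an Illumina HiSeq instrument. Following the paper's methods, the authors pooled and assembled the reads with Trinity, predicted coding transcripts with AUGUSTUS trained on *Chlamydomonas reinhardtii*, aligned reads to these with Subread and counted them with featureCounts at default settings. The labels name BWA and DESeq2, without a version. The deposited table holds whole-number read counts per transcript for 6 libraries, not normalized. Columns and tables of the authors' own comparison and enrichment (fold changes, p-values and calls) were not used. 711 descriptions are removed in the copy used here, 8 of them of members. No transcript lengths or sequences were used.

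Counts of all transcripts were fitted with the quasi-likelihood model of edgeR 4.0.16 in R 4.3.3, after filterByExpr (minimum count 10) and TMM scaling, and tested 2-sided with Benjamini-Hochberg adjustment, on replicates 2 and 3 of each condition and on all 6 libraries, without covariates. Dividing a log2 fold change by the square root of its F statistic gave its standard error. P-values of the fit over 4 libraries measure only the spread between replicates 2 and 3 of each condition, and those over 6 the spread between all 3. Deviations from the group mean correlated at 0.703, 0.625 and 0.545 between libraries of numbers 1, 2 and 3 over 6 libraries, so the replicate number was also used as a block. Normal 2 with mixotrophic 3 (0.683) and normal 3 with mixotrophic 2 (0.514) correlated as highly, and over 4 libraries same-numbered ones correlated at -0.188, so that the correlation sets replicate 1 apart and does not tell numbers 2 and 3 apart. The labels do not state the pairing. The precision is limited by 2535461 to 4444858 counts per library.

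Named are the transcript with most reads of each step, members called over both 4 and 6 libraries, called members opposite in direction to the most-read one, and of each list the 2 higher and 2 lower with the smallest adjusted p over 4 libraries. Any other name was chosen once its values had been seen. The lists were light-harvesting proteins and carotenoids (by BIN), and chlorophyll breakdown, phytyl chain supply, glutamyl-tRNA charging and regulators and helpers (by BIN, related Arabidopsis gene or keyword). Members, lists and named transcripts were chosen with earlier results of these data known. The fits were repeated with RLE or upper quartile scaling, with DESeq2 1.42.0, without the filter or with a minimum of 10 counts in each library used, with the block, on counts summed per component, with a log2 fold change of 1 or more in size, and without each library in turn. The fits were tested on data simulated without a replicate effect, with the variation of each set of libraries taken from that set. Those over 6 libraries, with and without the block, recovered a smaller share of the changed transcripts than those over 4. The larger variation over 6 libraries was put in, so the simulation does not rank the fits.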

Additional observations from a re-analysis of the deposited data

How the results depend on the processing

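Over 4 libraries, the counts of members higher (24) and lower (5) stayed within 1.5 times under RLE and upper quartile scaling, DESeq2, no filter, a minimum of 10 counts in each library used, and the replicate block over 4 libraries. The count of higher ones did so with all 6 libraries too. With the block in both the fit over 4 and the fit over 6 libraries, 1 of the 2 members called lower over both was left. The other, g4067, lost its call in the blocked fit over 6. Crossing the numbers of the 4 libraries, an alternative added after seeing the data because same-numbered libraries correlated at -0.188 there, gave 24 and 5. With all 6 libraries 2 members were lower and the median log2 fold change of the members was 0.25. The replicate block over 6 libraries gave 14 higher and 1 lower, and changed no call of a named member other than those given with its adjusted p or over 4 libraries only. A log2 fold change of 1 or more in size left 10 higher and 0 lower, also 0 at an unadjusted p under 0.05 in edgeR and in DESeq2. Counts summed per component gave a median of 0.28. Leaving out 1 library gave 9 to 24 higher and 0 to 6 lower, 9 to 14 higher and 0 to 1 lower over both 4 and 6 libraries, and a median of 0.36 to 0.53. The lowest counts came without mixotrophic 1, in a fit of 5 libraries with normal 1 among them, where 20 of the 29 members called over 4 libraries lost the call. DESeq2 lost 5 of the 29 (g6315, g2001, g4504, g4189 and g12835), leaving out mixotrophic 2 lost g6315 and g4189, and leaving out normal 2 lost g6315. The member g12102 was called without normal 1 (adjusted p = 0.0383). The cause of these shifts was not tested.

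Of all transcripts, 3549 were higher and 3593 lower. The counts were 1633 and 1874 with all 6 libraries, 1228 and 1288 with the block over 6, 2365 and 2373 per component, 1449 and 1486 at a log2 fold change of 1 or more in size, and 666 to 3476 and 730 to 3534 when 1 library was left out.

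For the lists, all 6 libraries gave 1 higher for chlorophyll breakdown, 2 for phytyl chain supply, 2 higher and 3 lower for carotenoids, 0 higher for glutamyl-tRNA charging (1 at an unadjusted p under 0.05 in edgeR) and 3 lower for regulators and helpers. DESeq2 gave 1 higher for chlorophyll breakdown and 3 for carotenoids, and the block over 4 libraries 1 higher for chlorophyll breakdown. No filter gave 2 lower light-harvesting proteins. The block over 6 gave 12 higher and 0 lower light-harvesting proteins, 1 higher and 2 lower for chlorophyll breakdown, 1 higher for phytyl chain supply, 1 higher and 2 lower for carotenoids, 0 for glutamyl-tRNA charging and 3 lower for regulators and helpers. Counts per component gave 8 higher and 2 lower light-harvesting proteins, 1 higher for chlorophyll breakdown and 3 higher for regulators and helpers. For glutamyl-tRNA charging they gave 1 higher and 1 lower. There the component of g12776 and g12778, which had no count in any library, was tested on reads of transcripts outside the list. A log2 fold change of 1 or more in size left 6 higher and 0 lower light-harvesting proteins, 1 higher and 2 lower for chlorophyll breakdown, 1 higher for phytyl chain supply, 1 and 1 for carotenoids and 0 for glutamyl-tRNA charging. Leaving out 1 library gave 7 to 20 higher and 0 to 5 lower light-harvesting proteins, 0 to 2 and 2 to 4 for chlorophyll breakdown, 1 to 4 and 0 to 1 for phytyl chain supply, 1 to 7 and 1 to 9 for carotenoids, 0 to 1 higher for glutamyl-tRNA charging and 4 to 6 and 3 to 10 for regulators and helpers.

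Signs turned between 4 and 6 libraries for g1043 and g1044, with the values given above, and for g12591 (0.034 and -0.134, not called). Among the most-read members of the steps and those called over 4 libraries, signs turned under 1 or more alternatives for the 5 that follow. None of these was called there. Turns of the remaining members are not all listed here. The log2 fold change of g5653 was -0.013 to 0.147 when 1 library was left out. For g6335 it was -0.037 with all 6 libraries, -0.035 with the block over 6, -0.018 per component and -0.022 to 0.062 when 1 library was left out (-0.009 without normal 3 and -0.004 without normal 1). For g6554 it was -0.036 per component and -0.015 to 0.038 without 1 of the 4 libraries. For g2001 it was -1.09 with all 6 libraries, -0.40 with the block over 6 and -1.09 without mixotrophic 1, and for g17980 -0.006 with all 6 libraries.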

Other observations

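The list of regulators and helpers outside BIN 19 held mostly proteins of other pathways, taken in by the words cobalamin and tetrapyrrole. Of its 23 tested members 6 were higher and 9 lower over 4 libraries, where 28.6% and 29% of all transcripts were, and 5 and 3 over 6, where 13.3% and 15.2% were. The same shares stand beside the counts that follow. Its 10 transcripts of cobalamin-independent methionine synthase, the enzyme that makes methionine without a tetrapyrrole cofactor, belonged to methionine synthesis and were tested over 4 libraries. There 5 of them were higher and 0 lower. Over 6 libraries, where g10182 was not tested, 4 were higher and 0 lower. Each of the 10 shared a Trinity component with another of them, so these counts are not independent. The one with the smallest adjusted p, g6221, had 26.0, 44.3 and 50.9 CPM in normal 1, 2 and 3 and 192, 177 and 179.8 CPM in mixotrophic 1, 2 and 3. Its conditions did not overlap, and the log2 fold change was 1.87 ± 0.098 over 4 libraries (edgeR adjusted p = 4.99e-16) and 2.18 ± 0.26 over 6 (adjusted p = 0.00324). CobW-like proteins, a family of metal-binding GTPases, also had transcripts sharing a component. They were lower in 7 of 10 tested over 4 libraries. Over 6 libraries, where g10896 was tested as well, 3 were lower. Of these g379 had 271, 500.2 and 446 CPM in normal 1, 2 and 3 and 125, 128 and 122 CPM in mixotrophic 1, 2 and 3, again without overlap. Its log2 fold change was -1.94 ± 0.073 over 4 libraries (edgeR adjusted p = 2.12e-19) and -1.70 ± 0.24 over 6 (adjusted p = 0.0052), and that of g4741 was -1.31 ± 0.060 over 4 libraries (edgeR adjusted p = 1.92e-17) and -1.14 ± 0.17 over 6 (adjusted p = 0.00587).

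Carotenoids, which share the plastid isoprenoid supply with the phytyl tail of chlorophyll, held 24 tested members over 4 libraries and 25 over 6. Over 4 libraries 8 were higher and 8 lower (28.6% and 29% of all), and over 6 libraries 2 and 3 (13.3% and 15.2% of all). The counts over 4 libraries were near the shares of all transcripts, and those over 6 were not above them. The higher ones with the smallest adjusted p were g7094, related to a carotenoid ring hydroxylase of the cytochrome P450 family, with 0.98 ± 0.092 over 4 libraries (edgeR adjusted p = 2.46e-10) and 0.93 ± 0.15 over 6 (adjusted p = 0.00838), and g10098, related to lycopene epsilon cyclase, with 1.04 ± 0.11 over 4 libraries (edgeR adjusted p = 4.24e-09) and 0.62 ± 0.30 over 6 (adjusted p = 0.178). The lower ones were g8971 of the BIN for carotenoid cleavage, with -1.46 ± 0.10 over 4 libraries (edgeR adjusted p = 4.52e-13) and -1.30 ± 0.16 over 6 (adjusted p = 0.00401), and g10417, related to phytoene desaturase, with -0.90 ± 0.081 over 4 libraries (edgeR adjusted p = 1.23e-10) and -0.68 ± 0.19 over 6 (adjusted p = 0.045), and it was not called with the block (adjusted p = 0.0752).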
